A study of Mus musculus with 18 samples.

Results

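Whole blood of 7 sham-treated mice was ranked transcript by transcript. These are the 7 arrays of 18 in the series that carry the label of 6 hours after a dose of 0 Gy, and they were chosen by that label alone. The mice were male C57BL/6N animals of 8 to 12 weeks. They received no radiation, and their blood was drawn from the heart 6 hours after sham treatment. In the other arrays of the series, mice of the same strain, sex and age received 2 Gy (5 arrays) or 8 Gy (6 arrays) of gamma rays from a cesium source, and blood was drawn at the same time. RNA of 0 Gy replicates 1 to 5 was purified with the RiboPure kit and that of replicates 6 and 7 with the PAXgene kit. In all groups the globin messenger RNA was then removed with the GLOBINclear kit and the RNA was amplified, labelled with the dye Cy3 and hybridised to a 1-colour Agilent array. Every value at 0 Gy is therefore one of globin-reduced blood, from animals that were handled but not irradiated.

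Blood RNA is a mixture. Red cells have lost their nucleus, but the youngest of them, the reticulocytes, still hold messenger RNA, and they bring globin, haem synthesis and iron transcripts. Platelets also lack a nucleus and carry messenger RNA from the megakaryocyte, while B cells, T cells, NK cells, neutrophils and monocytes bring transcripts of their own. In a bulk sample, fewer cells of a type and less RNA per cell cannot be told apart, and this holds for every lineage named in the results.

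The 75th percentile of the processed signal lay between 137.79 and 424.76 intensity units on the 7 arrays, and between 19263 and 24448 probes were well above background. No probe was saturated. They lay on 6 slides, with 6 days of scanning, so that only replicates 3 and 4 shared a slide. For probes printed 5 or more times on an array, the median SD between spots was 0.05 to 0.09 on the log2 scale. With 7 arrays in the group, their number sets the precision that can be reached.

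Replicates 4, 5 and 6 stood apart from the other arrays, each in a different way. Replicate 4 had 972 genes whose level was more than 2 log2 units above that on every other 0 Gy array, of 16532 genes looked at. The other 6 arrays had 21 to 156 such genes. Its median correlation with the other arrays over genes was 0.83, against 0.93 to 0.95 for the rest. Transcripts of the liver were high on it. Replicate 6 carried transcripts of the lung. Replicate 5 was the lowest array for B-cell genes and the highest for p53 target and neutrophil genes. The ranking, the most variable genes and the tests were repeated without each of them. For some lists, levels or median ranks are also given without replicate 5.

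Genes were ranked by the median over the 7 arrays of the log2 processed signal. A gene was ranked when a probe of it was well above background on at least 4 arrays, and its brightest probe stood for it. Of 20827 genes on the array, 12820 (61.6%) were ranked, and 11223 of these were well above background on 7 of 7 arrays. Median log2 signals ran from 3.71 to 19.41, with a middle value of 8.28. A probe's brightness depends on its own sequence as well as on its transcript, so these are ranks of probe signal and not of RNA amount. The brightest 30 genes on an array held 16.5% to 24.6% of the summed signal of the 12820 ranked genes, and the brightest 100 held 36.1% to 46.3%.

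The probes that carry the top of the ranking are shown with their positions as the array files give them, on the mouse build mm7. All are written 5′ to 3′. For the first 3 genes only the first 30 bases of a probe of 60 are printed. An annotation of mm7 was not used here, so their place in exons was not determined.
Pigt, chr17:38065479-38065538, plus strand: ccccctcgatgctcttagctgagtgtcccg
Lars2, chr9:123178230-123178289, plus strand: acgtcgctttttgatccttcgatgtcggct
Ptprz1, chr6:22942347-22942406, plus strand: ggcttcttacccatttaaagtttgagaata
Hbb-bt, chr7:99864305-99864363, minus strand: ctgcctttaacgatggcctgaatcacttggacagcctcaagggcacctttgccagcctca
Pigt encodes a subunit of the enzyme that attaches GPI anchors to proteins, Lars2 the mitochondrial leucyl-tRNA synthetase and Ptprz1 a receptor tyrosine phosphatase best known from brain. Hbb-bt is an adult beta-globin gene. The array files place the Pigt probe on another chromosome than the one RefSeq lists for that gene, so the position goes against the gene name, which comes from the probe's annotation. For the other 5 of the first 6 genes the chromosomes were the same, and genes of lower rank were not compared in this way.

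Probes assigned to these 3 genes gave the highest signals of all. Pigt had a log2 signal of 17.95 on replicate 6 and of 19.15 to 19.48 on the other 6 arrays, with a median of 19.41. It ranked first on 6 arrays and 23rd on replicate 6. Lars2 ran from 18.22 to 19.34 (median 19.01) and Ptprz1 from 18.45 to 19.25 (median 18.97). Both were also lowest on replicate 6, where they ranked 14th and 11th.

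Other probes of the same genes did not share this brightness. The next probe of Pigt had a median of 4.78 (range 3.90 to 6.96) and rose clear of background on only 4 of the 7 arrays. The 3 further probes of Ptprz1 lay between 1.15 and 3.31 and were above background on none. Lars2 had a single probe. Their dimmer probes are printed for comparison with the bright ones.
Pigt, dim probe, chr17:38064637-38064696, plus strand: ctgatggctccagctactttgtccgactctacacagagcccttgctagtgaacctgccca
Ptprz1, dim probe, chr6:22992824-22992884, plus strand: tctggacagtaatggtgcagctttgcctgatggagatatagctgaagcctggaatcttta
What the bright probes bound was not tested, since no transcript sequences were used here. The first 3 ranks are therefore those of probes and are not read as ranks of the Pigt, Lars2 and Ptprz1 transcripts. With the mean of a gene's probes in place of the brightest, Pigt fell to rank 797 while Lars2 and Ptprz1 ranked 1 and 2, because the mean was taken over the probes above background.

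**Figure D1:**
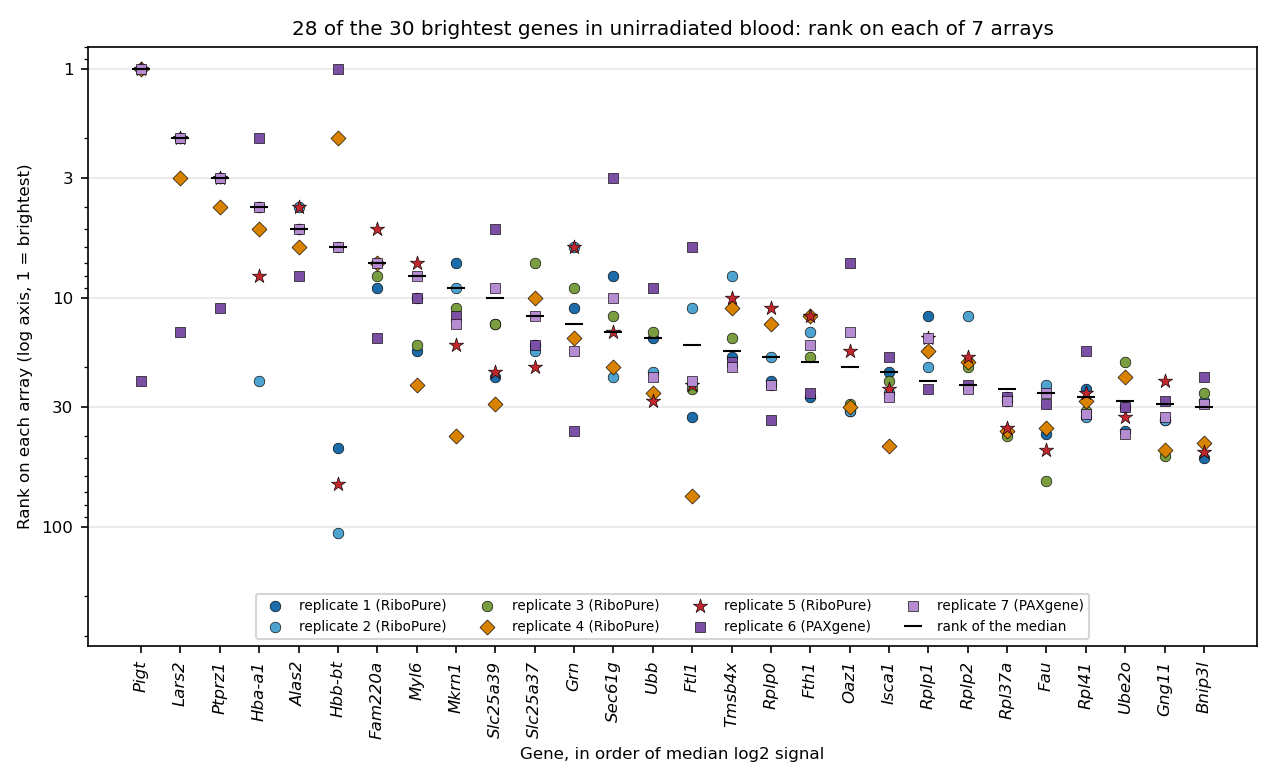
Rank on each of the 7 unirradiated arrays (vertical log axis, 1 is the brightest) of 28 of the 30 genes with the highest median log2 signal, in that order along the horizontal axis; each symbol is an array and the black dash is the rank of the median. Pigt is first on 6 of 7 arrays and at 23 on replicate 6, and Hbb-bt has the widest spread, from 1 on replicate 6 to 106 on replicate 2.

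Genes of red cells came next. Hba-a1, the adult alpha-globin, ranked 4th with log2 signals of 18.13 to 18.96 (median 18.66). Alas2, which catalyses the first step of haem synthesis in red cells, ranked 5th with 18.24 to 19.20 (median 18.51). Hbb-bt ranked 6th and was the least even of the 30, with 16.56 on replicate 5 and 19.00 on replicate 6 (median 18.40). Its rank on single arrays ran from 1 to 106, and it was low on replicates 1, 2 and 5. Near-identical adult globin genes (Hba-a2 and further Hbb copies) cannot be told apart from these probes.

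Genes of haem and iron handling held several further places. Slc25a37 (rank 12), the mitochondrial iron importer of red cell precursors, lay between 17.47 and 18.35. Slc25a39 (rank 10), a mitochondrial carrier for glutathione, lay between 16.63 and 18.65, and Isca1 (rank 21), an iron-sulphur cluster assembly factor, between 16.31 and 18.25. The ferritin light chain Ftl1 (rank 16) ran from 15.89 to 18.65 and the heavy chain Fth1 (rank 19) from 17.39 to 18.37. Ube2o, a ubiquitin-conjugating enzyme that clears ribosomal proteins from maturing red cells, and Bnip3l, the receptor for removal of their mitochondria, ranked 28th and 30th.

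Translation genes formed the next set. Rplp0, Rplp1 and Rplp2, the proteins of the ribosomal stalk, ranked 18th, 23rd and 24th, and Rpl37a, Fau and Rpl41 ranked 25th, 26th and 27th. Fau encodes a ribosomal protein fused to a ubiquitin-like protein. Ubb, a polyubiquitin gene, ranked 15th, and Oaz1, which controls polyamine synthesis, 20th. Many of these genes have processed pseudogenes of nearly the same sequence, which a 60-base probe may also detect.

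The remaining places were held by genes of broad or platelet expression. Myl6, a myosin light chain, ranked 8th, and Tmsb4x, which binds actin monomers and is abundant in platelets and white cells, 17th. Gng11, a G-protein gamma subunit, ranked 29th, Grn (progranulin) 13th, and Sec61g, a subunit of the translocon of the endoplasmic reticulum, 14th. Mkrn1, a ubiquitin ligase, ranked 9th and Fam220a 7th. Of the 30 genes, 27 stayed within the first 50 ranks on every array and 29 within the first 100; Hbb-bt was the exception. SDs over the 7 scaled arrays ran from 0.44 to 1.31, against a median of 0.49 over all ranked genes. A probe without a gene name had a median of 18.01 and would have taken rank 19.

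Without replicate 5, 12680 genes were ranked. Of the first 30 genes, 29 stayed, Ube2o moved to rank 31 and Gpx1, a glutathione peroxidase of red cells, entered. The first 6 kept their order, and 97 of the first 100 were shared. The median change of rank was 135 over the genes ranked in both and 2.0 over the first 100, where the largest change was 19. Leaving out any other array kept 28 or 29 of the 30. Of the settings run, the choice of probe changed the list most: with the mean of a gene's probes, 20 of the 30 remained.

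Lineage make-up was read from 18 lists of cell-type markers and 16 lists of functions. A list's level on an array was the mean over its ranked members of the log2 signal minus the array's 75th percentile, and this scaled log2 is used from here on. For reference, the median rank of all genes is 6410.5, and 7.8% of ranked genes lie within the first 1000. Replicate 5 had the lowest 75th percentile (137.79) and was the highest array for 17 of the 34 lists and the lowest for 3. Counts of members highest on replicate 5 are to be read beside this, as they are not particular to 1 lineage. Replicate 4 was the lowest array for 14 of the 34 lists. It was lowest for 17 of 19 platelet, 16 of 18 T-cell and 65 of 73 ribosomal protein members. Low ends on replicate 4 are likewise not particular to 1 list.

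Platelet and red-cell markers ranked highest among the cell types. All 19 platelet and megakaryocyte markers on the array were ranked, 13 of them in the first 1000, with a median rank of 421. The chemokines Pf4 and Ppbp of platelet granules ranked 52nd and 73rd, and the receptors Treml1 and Gp9 139th and 147th. The list's level was 4.61 on replicate 4, 5.70 in the median and 6.61 on replicate 5, and 16 of the 19 members were highest on replicate 5. Without it the highest level was 5.96. All 24 erythroid markers were ranked, 10 in the first 1000, with a median rank of 1367 and levels of 4.21 to 6.07. Alas2, Bnip3l and Bpgm, the last of which makes the regulator of oxygen release 2,3-bisphosphoglycerate, were among the first of this list. Replicate 3 was the highest array for it and replicate 1 the lowest.

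Lymphocyte markers were in the upper part of the ranking. The 16 B-cell markers had a median rank of 2843, led by the antigen-receptor subunit Cd79b (332), Ly6d (483), Ms4a1, which encodes CD20 (503), and the IgM Fc receptor Fcmr (682). The B-cell level was 0.48 on replicate 5 and 2.27 to 3.48 on the other 6 arrays. Replicate 5 was the lowest array for 16 of 16 members, and without it the median rank of the list was 2656. Cd79b itself stood at 4.33 on replicate 5 and at 6.09 to 7.31 elsewhere.

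T-cell markers varied less than B-cell markers over the 7 arrays. Without replicate 5 they did not, with levels of 1.68 to 3.02 against 2.27 to 3.48 for B cells. The median rank of the 18 genes was 1955, led by Cd8b1 (538), Thy1 (633), the CD3 chain Cd3d (1129) and Cd6 (1166), and the level ran from 1.68 on replicate 4 to 3.02 on replicate 7. The probe for Cd4 was among the dimmest, with a rank of 12729. For 12 NK and cytotoxic markers the median rank was 2229, with the chemokine Ccl5 at 249, Nkg7 at 824, the granzyme Gzma at 1211 and Klrd1 at 1645. Their level ran from 1.57 to 3.38, and 11 of the 12 were highest on replicate 5.

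Myeloid markers had 2 extremes. S100a9, a subunit of the neutrophil protein calprotectin, ranked 54th, its partner S100a8 439th and Retnlg 840th. Yet the median rank of the 15 mature neutrophil markers was 3820. Their level lay between 1.72 and 2.62 on 6 arrays and at 4.21 on replicate 5, where 14 of 15 members were highest. S100a9 stood at 11.04 on replicate 5 and at 8.65 to 9.83 on the others. Without replicate 5 the median rank was 3453 and S100a9 ranked 73rd. The 15 monocyte markers had a median rank of 2096, led by the protease Ctss (276), Emilin2 (453), Ly6c1 (506) and Nr4a1 (625), with levels of 2.69 to 4.11.

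The rarer types came lower. Of 11 dendritic-cell markers 10 were ranked, led by the transcription factor Irf8 (1061), Bst2 (2240), Itgax (2935) and Tcf4 (4698), with a median rank of 6513.5. Plasma-cell markers had a median rank of 7916, led by Mzb1 (2081), Xbp1 (3804), Jchain (6508) and Irf4 (7916). Eosinophil, basophil and mast-cell markers had one of 9206, led by Ear1 (2973), Gata2 (3914), Ccr3 (6284) and Siglecf (8945). Of these 12 genes, Epx, Prg2, Mcpt8 and Ms4a2 were not ranked. Neutrophil precursor genes came last of the blood types at 10704, with 8 of 11 ranked. Apart from Chil3 (474), they were dim: Lcn2, Ltf and Ctsg ranked 8218th, 10357th and 10364th, and Elane was above background on no array.

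**Figure D2:**
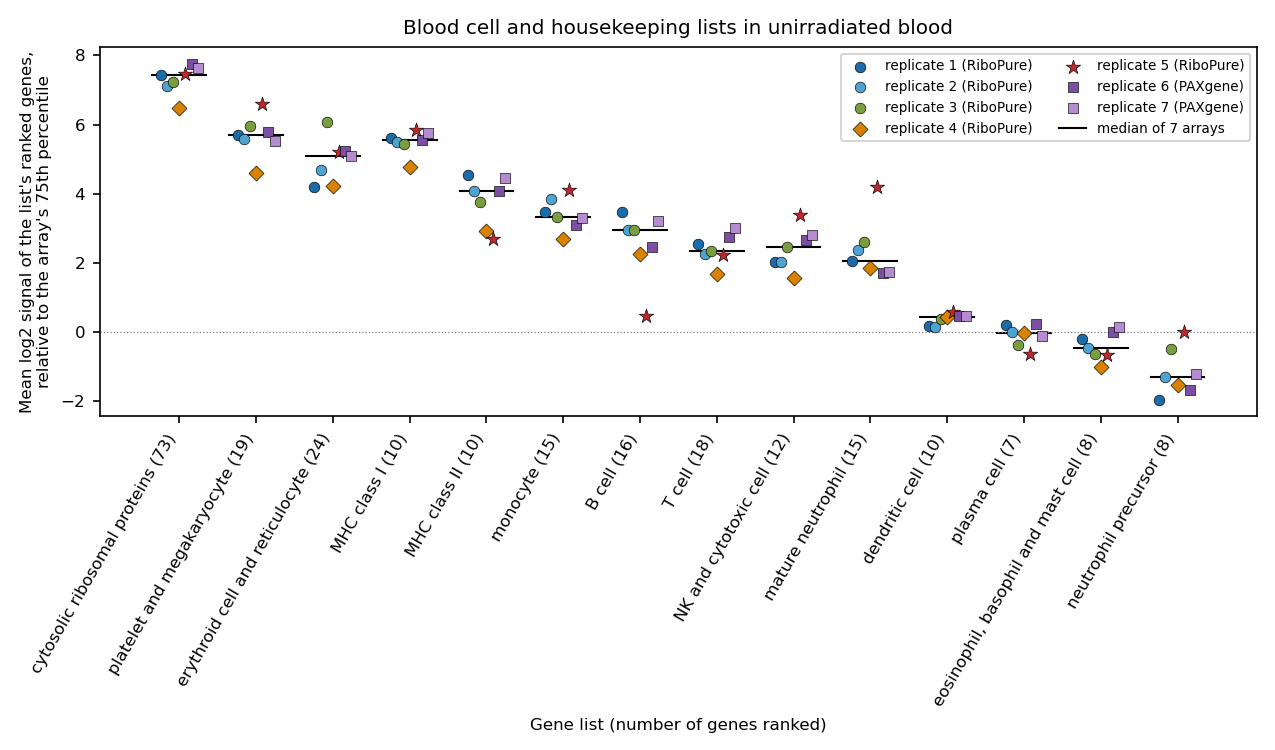
Level of 14 blood cell and function lists on the 7 unirradiated arrays, as the mean log2 signal of the ranked members relative to the array's 75th percentile; each symbol is an array, the black line is the median of 7 arrays, and the number ranked stands beside each list's name. Replicate 5 is the lowest array for B cells (0.48) and the highest for mature neutrophils (4.21) and platelets (6.61).

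Among the functions, cytosolic ribosomal proteins stood first. Of 75 genes 73 were ranked and 68 were in the first 1000, with a median rank of 157. Rpl37a, Rpl41, Rps23 and Rps14 ranked 25th, 27th, 33rd and 34th, and the level ran from 6.48 on replicate 4 to 7.76 on replicate 6. The paralogues Rpl39l and Rpl3l, known from testis and muscle, were not ranked. Actin and cytoskeleton genes had a median rank of 456.5 (Myl6 8th, Tmsb4x 17th, Arpc1b 173rd, Actg1 183rd), and respiratory chain genes one of 890 (Cox6a1 63rd, Cox8a 192nd, Cox6c 242nd, Ndufa1 290th). Ferritin and iron genes, led by Alas2, Ftl1, Fth1 and the haem-forming enzyme Fech (68th), had one of 2062.

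Antigen presentation was high in the ranking. The 10 MHC class I genes had a median rank of 512.5, led by H2-K1 (133), B2m (172), H2-D1 (189) and H2-T23 (217), and 4 of 10 class II genes were in the first 1000: the invariant chain Cd74 (329), H2-Ab1 (348), H2-Eb1 (551) and H2-Aa (776). The class II level was lowest on replicate 5 (2.69) and ran from 2.93 to 4.54 on the others. H2-Ea was not ranked. Of 15 S100 genes 9 were ranked, led by S100a9, S100a4 (259), S100a10 (300) and S100a6 (376), and 8 of the 9 were highest on replicate 5.

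Stress and signalling lists held a few bright members. Rsad2, the antiviral gene viperin, ranked 70th, followed in the interferon list by Ifi27l2a (321), Isg15 (494) and Irf7 (798). The median rank of its 17 ranked members was 3707, and the level ran from 2.01 to 3.56, with 12 of 17 highest on replicate 5. Immediate early genes were led by Klf2 (48), Jund (49), Junb (525) and Nr4a1, with a median rank of 2517. Glucocorticoid-response genes were led by Tsc22d1 (225), Tsc22d3 (668), Ddit4 (737) and Txnip (1105), with a median rank of 2743. Genes of G2/M and mitosis had a median rank of 6603, although the mitotic genes Nusap1 and Ube2c ranked 378th and 395th, ahead of Ccna2 (1409) and Birc5 (2336).

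The p53 targets stood higher on replicate 5 than on the other unirradiated arrays. The 19 ranked members had a median rank of 4147, and 4569 without replicate 5. Ddit4 (737), the antiproliferative gene Btg2 (1754), Phlda3 (2061) and Bbc3 (2200), which encodes the death protein PUMA, led the list. Its level was 2.78 on replicate 5 and 0.67 to 1.11 on the other 6 arrays, and 16 of 19 members were highest on replicate 5. Psrc1 stood at 2.86 on replicate 5 and at -3.35 to -0.78 on the others. Cdkn1a, the cell-cycle inhibitor p21, stood at 1.28 against -4.08 to -1.46.

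On the p53, B-cell and neutrophil lists replicate 5 lay within the range of the 2 Gy arrays. It lay within that of the 8 Gy arrays only through 8 Gy replicate 1. The p53 level was 2.20 to 3.09 on the 2 Gy arrays and 2.76 to 3.32 on the 8 Gy arrays. The B-cell level was -1.5 to 0.69 at 2 Gy and -1.83 to 1.32 at 8 Gy, and the mature neutrophil level 2.62 to 5.29 and 3.59 to 5.65. On 8 Gy replicate 1 the p53, B-cell and neutrophil levels were 2.76, 1.32 and 3.59. The other 8 Gy arrays ran from 3.07 to 3.32, -1.83 to -0.58 and 4.51 to 5.65, and replicate 5 lay outside these ranges. Of single genes, Psrc1 stood at 2.86 on replicate 5, at 1.96 to 3.66 at 2 Gy and at 2.97 to 3.82 at 8 Gy. Bax, a p53 target that promotes cell death, stood at 3.06 on replicate 5 and at 0.49 to 1.53 on the other 0 Gy arrays. It was 2.35 to 3.13 at 2 Gy and 2.74 to 3.12 at 8 Gy. Replicate 5 is kept at 0 Gy as its label says. Why it differs was not tested.

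**Figure D3:**
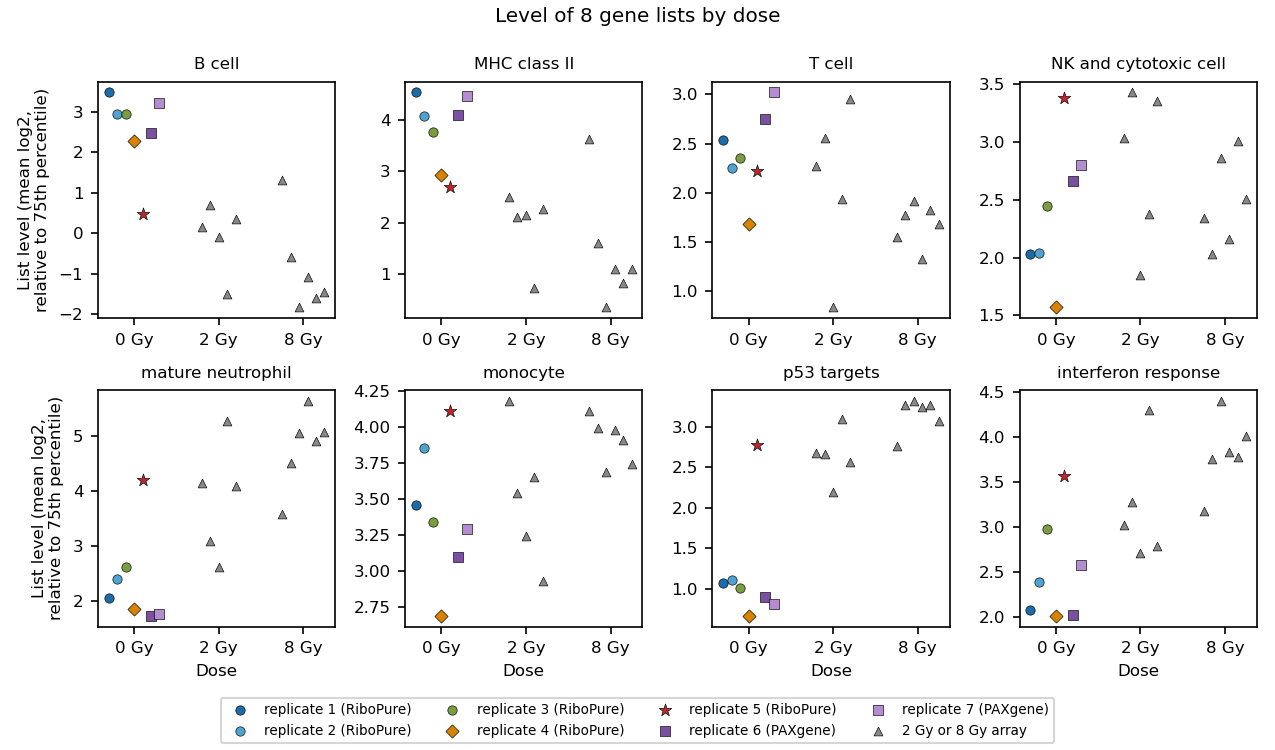
Level of 8 lists (mean log2 signal of the ranked members relative to the array's 75th percentile) on all 18 arrays by dose; each 0 Gy replicate has its own symbol, grey triangles are the 2 Gy and 8 Gy arrays, and the vertical scale differs between panels. For p53 targets replicate 5 (2.78) lies above the other 0 Gy arrays (0.67 to 1.11). It is within the range of the 2 Gy arrays (2.20 to 3.09) and of the 8 Gy arrays (2.76 to 3.32), the latter only through 8 Gy replicate 1 (2.76).

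Spread between the 7 arrays was small for most genes and large for a few. The median SD of the scaled log2 signal was 0.49, with quartiles of 0.36 and 0.72. An SD above 1 was found for 1537 genes (11.99%) and above 2 for 201. Of these 201 genes 174 were highest on replicate 4. Without replicate 4, 997 genes had an SD above 1 and 45 an SD above 2. Without replicate 5 the counts were 1515 and 244.

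The 20 most variable genes were mostly dim and fell into groups by array. Their median log2 signals ran from 4.17 to 9.27, only 3 of them were well above background on 7 of 7 arrays, and 18 were highest on replicate 4. A value below background has no order among the dim arrays, so that SDs of these genes measure chiefly how high the bright array stood. Without replicate 5, 18 of the 20 were the same (Cyp3a11 and Mesp2 replaced Galnt14 and Pck1). Without replicate 4, 7 were.

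**Figure D4:**
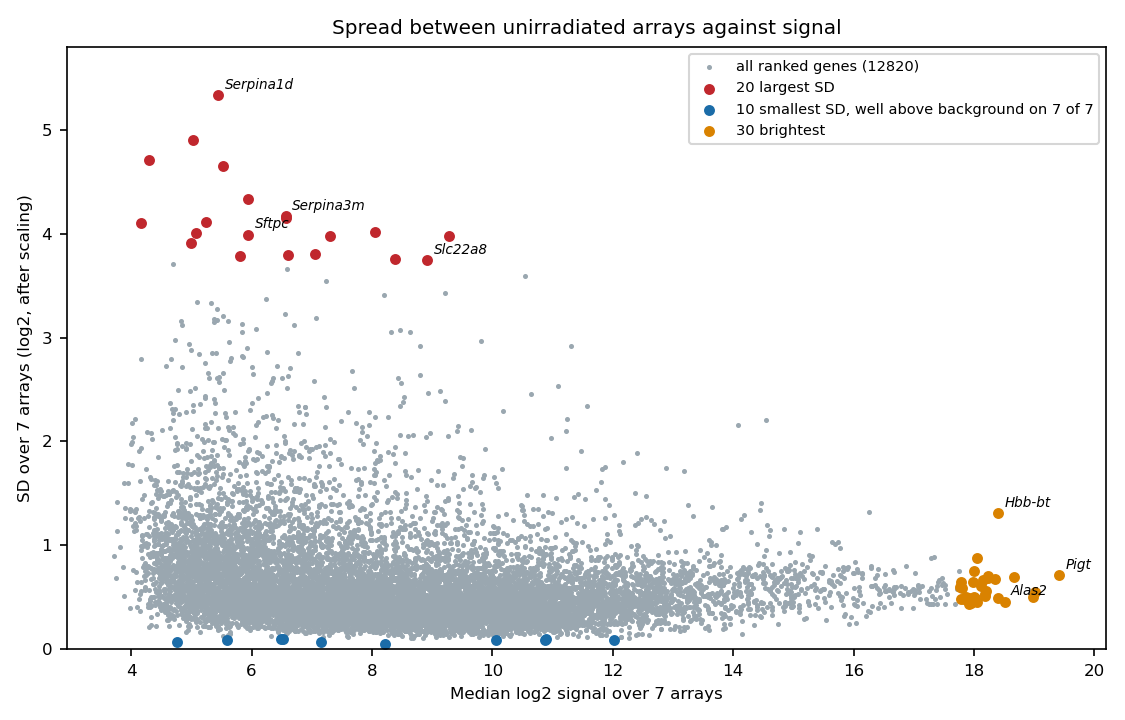
SD over the 7 unirradiated arrays (log2, after scaling to the 75th percentile) against the median log2 signal, one point per ranked gene; red points are the 20 genes of largest SD, blue points the 10 of smallest SD, orange points the 30 brightest, and a few are named. The red points lie at median log2 signals of 4.17 to 9.27, and Hbb-bt (SD 1.31) has the largest SD of the 30 brightest.

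Of the 20, 12 were known liver genes or genes of liver metabolism, and they stood high on the same arrays: Serpina1d, Ahsg, Rbp4, Mup3, Fgb, Serpina3m, Ambp, Akr1c6, Fbp1, Mup4, Cyp3a41a and Pck1. The first, which encodes an alpha-1-antitrypsin, had the largest SD (5.33), with 10.35 on replicate 4, 3.28 on replicate 3 and -5.09 to -0.88 on the others. Ahsg (fetuin-A) stood at 9.13 on replicate 4, 1.27 on replicate 3 and -4.73 to -2.07 elsewhere, and Fgb, a fibrinogen chain, at 7.68, 0.85 and -5.01 to -1.63. All 12 also had their highest 2 Gy value on a single array, 2 Gy replicate 3, as with 10.59 for Serpina1d against a 2 Gy median of -2.03.

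Hepatocyte markers gave the same picture. Their summed level, the log2 of the summed scaled signals of 7 genes, was 10.80 on replicate 4 and 1.78 to 3.87 on the other 0 Gy arrays. On replicate 4 all 7 were well above background, on replicate 3 5 were, and on the other arrays 1 to 3. Alb, the serum albumin gene, stood at 9.60 on replicate 4, 1.92 on replicate 3 and -6.96 to -3.83 elsewhere. It was above background on 2 arrays and so was not ranked. The same sum was 11.72 on 2 Gy replicate 3, 1.43 to 2.20 on the other 2 Gy arrays and 2.34 to 4.45 at 8 Gy. Ranked hepatocyte members were Trf (1770), which other cells express too, Fgb (10620) and Ahsg (12015). The part of other tissue in the spread of the 20 genes was not tested.

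Lung and fat transcripts followed other arrays. The 5 lung epithelium markers summed to 5.31 on replicate 6, where all 5 were above background, and to -2.79 to 0.52 elsewhere. Sftpc, the gene of surfactant protein C, was twelfth in SD and stood at 5.14 on replicate 6, 0.07 on replicate 7 and -6.85 to -1.49 on the others. At 8 Gy the sum reached 6.14 on replicate 1 and 2.97 on replicate 6. Sftpc and Scgb1a1 were the ranked members (10597 and 11227). Adipocyte markers summed to 2.36 to 4.89, highest on replicate 2, with Fabp4, Cfd and Adipoq ranked 2225th, 9539th and 12660th. Fibroblast and matrix markers were highest on the same array (4.33, against 1.58 to 3.37), with Dcn, Col1a2, Sparc, Col3a1, Col1a1 and Lum ranked between 4336 and 12437.

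Muscle and vessel markers were ranked in part. Of 12 cardiac muscle genes 7 were ranked: Myl3 (4061), Actc1 (4088), Mybpc3 (8258), Tnni3 (10378), Nppa (10743), Nppb (11557) and Myl2 (11670). The heart muscle genes Myh6, Myl7, Tnnt2, Ryr2 and Pln were not, and the cardiac sum ran from 2.37 to 3.99. Of 8 skeletal muscle genes 6 were ranked, from Tnni2 (5791), Mylpf (9153) and Acta1 (11149) to Myh4, Myh1 and Tnnt3 (12352). Of 7 endothelial genes 4 were ranked, with Esam, which platelets also express, at 2470 and Kdr, Cldn5 and Emcn at 10712, 11736 and 12782. Emcn was not ranked without replicate 5.

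**Figure D5:**
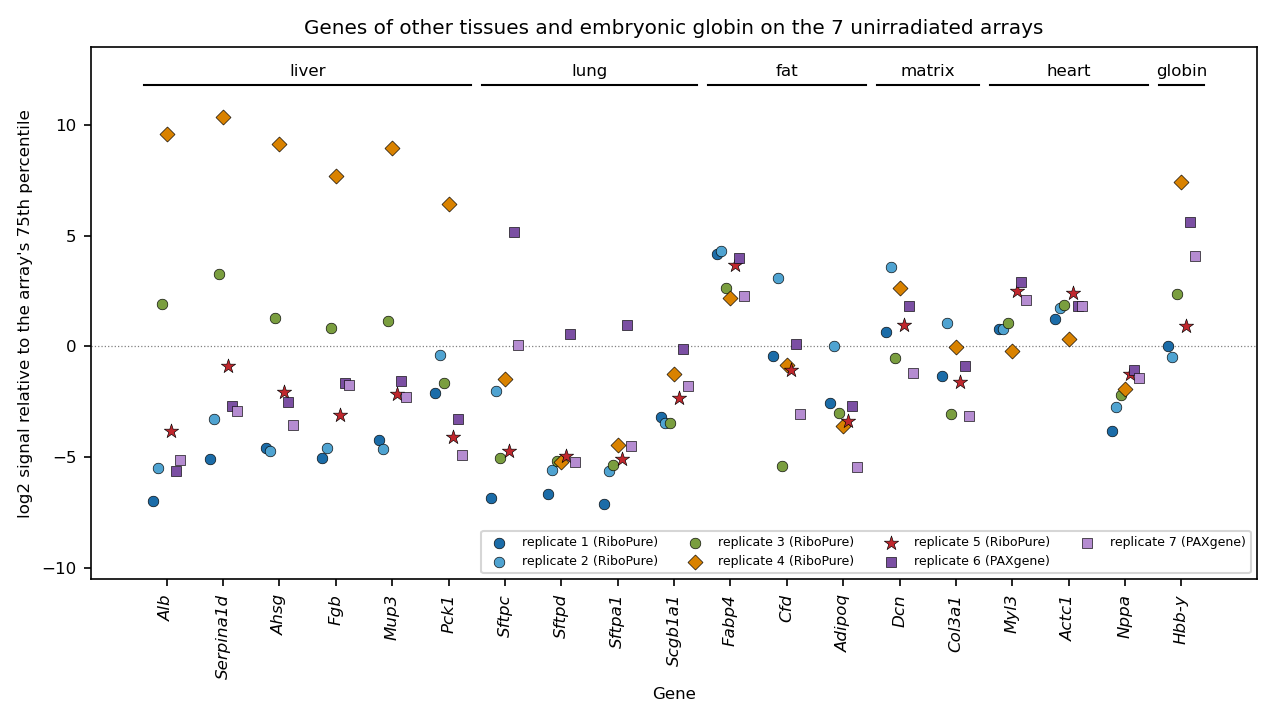
Log2 signal relative to the array's 75th percentile of 18 genes of liver, lung, fat, connective tissue matrix and heart, and of the embryonic globin Hbb-y, on the 7 unirradiated arrays; each symbol is an array. The 6 liver genes are highest on replicate 4, as with Alb at 9.60, and Sftpc is highest on replicate 6 at 5.14.

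A different set of variable genes had the same order of arrays as the probe that stands for Hbb-bt. Hbb-bt was highest on replicates 6 and 4 (11.44 and 11.36) and lowest on replicates 2, 1 and 5 (8.05, 9.06 and 9.45). The embryonic globin Hbb-y ran from -0.48 to 7.42 with the same arrays at its ends. Among the haemoglobin probes the order held for 3 of the 4 of Hbb-bt, which include the probe that set it. It also held for Hbb-y and for 1 of the 2 of the embryonic globin Hbb-bh1. It did not hold for either probe of Hba-a1, which stood at 11.21 on replicate 3 and 11.09 on replicate 4 for the brighter one, nor for Hbq1a, which was lowest on replicate 4 (5.02), or Hbq1b. That order, replicates 4 and 6 highest and 1, 2 and 5 lowest, was shared by 236 of the 12820 ranked genes (1.84%). Of the 201 genes with an SD above 2, 76 had it. These shares cannot be set against each other. The 201 genes were chosen by their spread on these same arrays, and 174 of them were highest on replicate 4. In the 20 most variable genes it held for 6: 4930456L15Rik, the olfactory receptor gene Olfr1255, the transcription factor gene Prrx1, Eya4, the prolactin-family gene Prl2a1 and the organic anion transporter gene Slc22a8. The pattern was noticed in these values and is a description of them. Why these genes share it was not tested.

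Olfr1255 stood at 6.71 on replicate 4, 2.64 on replicate 6 and -4.40 to 0.14 elsewhere, and Slc22a8 at 8.60, 3.81 and -2.08 to 1.89. Of 902 olfactory receptor genes on the array 157 were ranked, with a median SD of 1.02, and 22 of these 157 had the order. LOC383229, an alpha-globin-like gene with rank 398, had it as well, with 8.41 and 7.73 on replicates 4 and 6 and 2.04 to 5.22 on replicates 1, 2 and 5. Its probe shares a run of 18 bases, in capitals, with the Hba-a1 probe.
Hba-a1, chr11:32235785-32235966, plus strand: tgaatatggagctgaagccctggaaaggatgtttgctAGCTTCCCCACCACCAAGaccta
LOC383229, chr17:24470047-24470211, minus strand: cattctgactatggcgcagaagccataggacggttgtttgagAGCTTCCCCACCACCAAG
The placements in the files span 182 and 165 bases, more than the 60 of each probe. A run of 15 or more bases shared with an alpha- or beta-globin probe was found in 3 other probes of the array and in none of the 20 most variable genes.

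Galnt14, a glycosyltransferase gene, was the remaining gene of the 20. It stood at 0.99 to 2.17 on replicates 2, 3, 5 and 7 and at -6.94 to -4.22 on replicates 1, 4 and 6, so that the arrays fell into 2 sets. At 8 Gy the same probe gave 2.23 to 3.08 on 4 arrays and -6.09 and -4.07 on 2. At 2 Gy it gave -4.95 on replicate 5 and 1.15 to 3.81 on the others. These low arrays at 2 Gy and 8 Gy shared a slide and scan day with 0 Gy replicate 1 or 6. By contrast, 0 Gy replicate 4 shared its slide with 0 Gy replicate 3, where the signal was high. The part of the slide was not tested. Another ranked probe of Galnt14 was not highest on replicate 5, the highest 0 Gy array of this probe. Over the 2 Gy and 8 Gy arrays the 20 genes had SDs above the median of all genes, 20 of 20 at each dose, with median SDs of 4.93 and 1.22. For the 12 liver genes the highest 2 Gy value came from 1 array, 2 Gy replicate 3. At 8 Gy dim values entered these SDs, as with Akr1c6 at -6.23 to -3.74. Neither count is therefore read as a repeat of the spread at 0 Gy.

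The steadiest genes had SDs close to the spread between spots. Ccdc134, a gene of a secreted protein, had an SD of 0.051 and a range of 0.66 to 0.77. Dpy19l3, B630019K06Rik, 1700084J12Rik, Dnajb11, Isca2, Dusp2, LOC546143, Tufm and Dnajc24 followed, up to an SD of 0.101. Dnajb11 is a chaperone of the endoplasmic reticulum, Isca2 an iron-sulphur cluster factor and Tufm a mitochondrial elongation factor. Their ranks ran from 1157 (Dusp2) to 12351 (B630019K06Rik). These 10 were picked as the lowest of 11223 SDs, and at other doses their median SDs were 0.40 (2 Gy) and 0.46 (8 Gy), with 6 and 5 of 10 below the median of all genes.

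The kit was compared within the 0 Gy arrays, with 2 PAXgene against 5 RiboPure arrays. Of 14541 genes tested with limma and Benjamini-Hochberg adjustment, 1 passed an adjusted p of 0.05 (0.00688%), while 1102 had an unadjusted p under 0.05. The gene was 2810427C15Rik, at -4.89 and -4.66 on the PAXgene arrays and -0.87 to -0.44 on the RiboPure arrays, so that the groups did not overlap. The difference was -4.06 ± 0.27 (SE, n = 2 and 5; limma adjusted p = 0.00852), and it was called under 6 of 12 alternatives. Next in line were 2610030P05Rik (-2.97 ± 0.28, limma adjusted p = 0.0537), Rnf185, 2610027H17Rik and LOC434166 on the lower side. On the higher side were Gnao1 (5.22 ± 0.67, limma adjusted p = 0.161), Zfp628, Ccdc113, 8430436N08Rik and LOC333669. None of these 9 passed the test. Without replicate 2, 3, 6 or 7 no gene passed in limma (320 to 971 at an unadjusted p under 0.05). Leaving out replicate 6 or 7 leaves 1 PAXgene array, which is then assumed to vary like the RiboPure arrays. Replicate 6, one of the 2 PAXgene arrays, is also the array with lung transcripts, and its part in these differences was not tested.

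The unirradiated arrays were then set against the 8 Gy arrays, with the kit as a term of the limma model over all 18 arrays. Brightest genes and lists are read against the share of all 13536 tested genes that passed: 1628 genes (12.0%) at an adjusted p of 0.05, of which 596 (4.4%) were higher and 1032 (7.62%) lower at 0 Gy. That split depended on the scaling, with 36.6% of calls higher at 0 Gy here, 54.6% to 55.8% after quantile normalization, in the deposited table and after normexp, and the median of all genes moved from -0.080 to 0.024 with quantile normalization. Leaving out 1 array moved the count by over 1.5 times for 14 of the 18 arrays. It was 289, 357, 920, 854, 3087 and 883 without 0 Gy replicates 1, 2, 3, 4, 5 and 7. It was 995 and 642 without 2 Gy replicates 1 and 5, and 2940, 653, 597, 471, 510 and 426 without 8 Gy replicates 1 to 6. When slide, or scan day, was made a block in limma, no gene passed (1167 and 2507 at an unadjusted p under 0.05).

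Of the 30 brightest genes 10 passed, all lower at 0 Gy, among them Mkrn1, Slc25a39, Sec61g, Ubb, Ftl1, Oaz1, Isca1, Rpl41 and Gng11. Ubb had a scaled log2 signal of 9.32 to 10.91 (mean 10.08) at 0 Gy and of 10.40 to 11.42 (mean 10.97) at 8 Gy, so that the groups overlapped, and its difference was -1.13 ± 0.30 (SE, n = 7 and 6; limma adjusted p = 0.0305). The 10 differences ran from -1.34 (Ftl1) to -0.96 (Sec61g), and the median over the 30 genes was -0.98, against -0.08 over all genes. None of the 30 passed after quantile normalization, in the deposited table or after normexp, where the medians were -0.05, -0.06 and -0.34. None passed without 0 Gy replicate 1, 2 or 4, without 2 Gy replicate 5 or without 8 Gy replicate 2, and 23 did without 0 Gy replicate 5. The count was also 0 without the filter, with RiboPure arrays alone and with the replicate number as a block. Of the 20 most variable genes none passed.

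B-cell genes were higher in unirradiated blood for 15 of 16 members, with a median difference of 3.16, and Cr2 did not pass. Cd79b stood at 4.33 to 7.31 (mean 6.40) at 0 Gy and 1.65 to 5.06 (mean 2.53) at 8 Gy, and the overlap came from 0 Gy replicate 5 and 8 Gy replicate 1. Its difference was 3.58 ± 0.61 (SE; limma adjusted p = 0.00862). All 10 MHC class II genes were higher too, with a median of 2.06. Because a gene could pass the filter through the 0 Gy arrays alone, the same was counted over genes well above background on all 18 arrays, where 7 of 8 B-cell and 8 of 8 class II genes passed. Of 18 T-cell genes 2 passed, Cd8b1 and Ccr7, both higher. That share is near the 12.0% of all tested genes and is not read as a result about T cells.

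Neutrophil and p53 target genes were lower in unirradiated blood. Of 15 mature neutrophil genes 14 passed, with a median of -2.31. S100a8 stood at 4.98 to 8.45 (mean 6.06) at 0 Gy and 7.16 to 9.74 (mean 8.62) at 8 Gy, a difference of -2.40 ± 0.60 (SE; limma adjusted p = 0.0256). Of 19 p53 targets 17 passed, with a median of -1.63, and Btg2 and Tnfrsf10b did not. Psrc1 stood at -3.35 to 2.86 (mean -0.93) at 0 Gy and 2.97 to 3.82 (mean 3.41) at 8 Gy, with no overlap and a difference of -4.37 ± 0.70 (SE; limma adjusted p = 0.00862). Counts for other lists rested on single arrays. Of 17 interferon genes 9 were lower, with 1 without 0 Gy replicate 1 and 15 without 0 Gy replicate 5. Of 19 platelet genes 6 were lower, and 16 without 0 Gy replicate 5. None passed after quantile normalization, without 0 Gy replicate 1, 2 or 4, or without 2 Gy replicate 5. The erythroid share was near that of all genes: 3 of 24 passed, none after quantile normalization or in the deposited table, and 0 to 7 with 1 array left out. With 1 array left out, the calls ran from 12 to 16 for B cells, 3 to 10 for class II, 7 to 14 for neutrophils and 13 to 17 for p53 targets, with the fewest for class II and neutrophils without 0 Gy replicate 1. No gene of these lists passed when slide or scan day was blocked, while the medians were then 3.09 and 3.07 for B cells, 2.09 and 2.17 for class II, -1.91 and -2.06 for neutrophils and -1.48 and -1.43 for p53 targets.

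Against 2 Gy, 8 of 13536 genes passed in limma (0.0591%), 4 higher and 4 lower at 0 Gy (0.0296% each), and 2775 had an unadjusted p under 0.05. None of the brightest 30 or of the 20 most variable genes passed, and Psrc1 was the only list member that did (-4.05, limma adjusted p = 0.0373). This comparison rests on replicate 5: without it 967 genes passed, among them 15 of 16 B-cell, 16 of 19 p53 target, 11 of 15 neutrophil and 7 of 10 class II genes. It rests on 2 irradiated arrays as well, since 217 genes passed without 2 Gy replicate 3 and 160 without 8 Gy replicate 1. Leaving out 0 Gy replicate 1, 2, 3, 6 or 7, 2 Gy replicate 1, 2, 4 or 5 or 8 Gy replicate 3 left none (limma, 1721 to 2667 at an unadjusted p under 0.05), and without 8 Gy replicate 2, 4, 5 or 6 the count was 3 to 5. The 2 Gy and 8 Gy comparisons share the same 7 unirradiated arrays.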

How the data were processed

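RNA of whole blood was measured on 18 arrays, 7 of them at 0 Gy. The deposited scanner files give an intensity per spot, namely the processed signal. Per the file headers, Agilent Feature Extraction (version 9.5.3.1) had subtracted the background and detrended it. The deposited table of the series also holds an intensity on a linear scale, and the steps that led to it are not given in the sources used here. Limma appears in the submitters' processing notes, with no step given.

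For the ranking, log2 of the deposited processed signal was averaged over the spots of a probe, control spots left out (43379 spots, 41174 probes). At 0 Gy, 13 probe values marked as outlier spots were dropped. For levels, SDs and tests each array's 75th percentile was subtracted. Genes were named through RefSeq tables: 23075 probes by accession, 6587 by symbol and 3072 by an older symbol, while 1449 retained the file's name. The 6991 without any name were not ranked. Dose and kit were fitted over 18 arrays, on genes that cleared background on 5 or more of them. The kit was fitted over the 7 arrays at 0 Gy, on genes that did so on 2 or more. Both fits used limma 3.58.1 (lmFit and eBayes) in R 4.3.3 with Benjamini-Hochberg adjustment, 2-sided tests and a threshold of 0.05, and were tested on simulated data. Differences are 0 Gy minus the other dose, or PAXgene minus RiboPure, with the model's standard error. Tables were handled in Python 3.11.15 with pandas 2.3.3.

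The 0 Gy arrays, the gene lists, the tests and the alternatives were chosen with earlier results of these data known. Genes were named by rule: the 30 brightest, the 20 with the largest SD (with and without replicate 5), the 10 steadiest, the 4 brightest members of each list with each ranked member of the other-tissue lists, the 5 genes of each sign with the smallest p for the kit, and those of the first groups that passed a dose test. A few genes that this rule names are not reported here, though the counts include them. Genes that complete small counts, examples in the dose comparisons and genes of the globin order were chosen after their values were seen. Alternatives covered the scaling, normexp with an offset of 50, the deposited table, the filter, the probe choice, the kit, the slide, the scan day, the replicate number and each array left out.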

Additional observations from a re-analysis of the deposited data

Results flagged for a closer look

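Among the 7 unirradiated arrays, 28 of 209 list levels and gene levels had an end array far from the rest: its gap to the nearest array, divided by the whole range, was above Dixon's critical value of 0.568. Chance gives about 1 in 20 such values, but the share here cannot be read against it: 9 of the 22 genes among the 28 had been chosen for a large SD, and values of one array are not independent of each other. By array, 11 of the 28 came from replicate 5 and 15 from replicate 4, which holds most of the liver genes.

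Of these, 6 were list levels. Replicate 5 was far below the rest for B cells (0.596) and far above for p53 targets (0.794), mature neutrophils (0.637) and S100 proteins (0.642). Replicate 4 was far above the rest for hepatocytes (0.679) and far below for MHC class I (0.627). It was the lowest array for 14 of the 34 lists.

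Single genes far above the rest on replicate 4 were the liver genes Rbp4 (0.603), Mup3 (0.573), Serpina3m (0.626), Ambp (0.644), Akr1c6 (0.663), Fbp1 (0.629), Cyp3a41a (0.699), Pck1 (0.601) and Cyp3a11 (0.709). Far below on the same array were H2-T23 (0.659), Gata2 (0.629), Txnip (0.645) and Btg2 (0.574). On replicate 5, Cd79b (0.59) and Fcmr (0.634) were far below, and Nfil3 (0.615), Siglecf (0.57), Junb (0.683), S100a8 (0.596) and Retnlg (0.584) far above. On replicate 3 the Y-linked gene Eif2s3y (0.606) and the chaperone Hsp90aa1 (0.796) were far above.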

How the results depend on the processing

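The ranking kept 26 to 30 of its first 30 genes under every setting run but 1: the mean of a gene's probes kept 20. The 20 most variable genes depended on the setting, with 8 shared under the median absolute deviation, 4 without the filter, 3 among genes above background on 7 of 7 arrays, 9 with RiboPure arrays alone, 6 without replicates 4 and 5 (chosen after seeing the data), and 7 to 18 with 1 array left out. Of 340 list levels 8 moved by more than the spread between arrays, and of 450 ranks of named genes 53 did.

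For 0 Gy against 8 Gy, limma called 589 genes without the filter, 278 with RiboPure arrays alone, 0 when slide or scan day was blocked, and 289 to 3087 with 1 array left out. For 0 Gy against 2 Gy the calls were 41 after quantile normalization, 53 after normexp, 33 over genes above background on every array, and 0 without the filter, with RiboPure arrays alone, or when slide or scan day was blocked (5844, 1630, 1823 and 1878 at an unadjusted p under 0.05 in limma). They ran from 0 to 967 with 1 array left out. For the kit, normexp, the filter on every array and leaving out replicates 4 and 5 (added later) gave 0 calls in limma (755, 879 and 2171 at an unadjusted p under 0.05), and 1 array left out gave 0 to 1. Sec61g changed sign against 8 Gy after quantile normalization (0.004). Added after seeing the data, leaving out 0 Gy replicate 4 and 2 Gy replicate 3 gave 1931 and 8 calls.

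With the replicate number as a block, 244 genes passed against 8 Gy and 68 against 2 Gy. The numbers do not pair the samples: over 16 same-numbered pairs the correlation of deviations ran from -0.498 to 0.308, and 2 of 18 arrays were closest to an array of their own number.

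Dim probes limit the ranks below the middle of the list and the SDs of genes above background on few arrays. The PAXgene group of 2 arrays limits the kit comparison.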

Other observations

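Clock and heat shock genes were not described with the other lists. Of 16 clock genes 12 were ranked, led by Dbp (1570), Nfil3 (5175), Per1 (5619) and Tef (5767), and their level ran from -0.74 to 0.02. Per3, Ciart, Cry1 and Npas2 were not ranked. All 11 heat shock genes were ranked, led by Hsp90ab1 (473), Hspa8 (518), Hsp90aa1 (669) and Hspa5 (1036), with levels of 2.84 to 3.53. Of the Y-linked genes and Xist, Eif2s3y, Ddx3y and Kdm5d were ranked (3470, 6262 and 9433) and Xist, Uty and Usp9y were not.

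Genes often used as references in blood differed in spread over the 7 arrays, and were chosen outside the naming rule. Actb had an SD of 0.59 and rank 201, above the median SD of 0.49. Gapdh had an SD of 0.28 (rank 514), B2m 0.28 (172), Hprt 0.31 (1310), Sdha 0.25 (4447), Tbp 0.30 (11583), Ppia 0.41 (1464) and Ywhaz 0.48 (1547).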
